A study of Homo sapiens with 23 samples.

Results

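The regions described here are 8525 stretches of chromatin in which both marks of an active enhancer, acetylation of histone H3 at lysine 27 (H3K27ac) and monomethylation at lysine 4 (H3K4me1), were called inside a broad domain of H3K36me3, the trimethylation of H3 lysine 36 that covers transcribed gene bodies. They were chosen from the peak lists in 3 steps. Each H3K36me3 list was stitched by joining peaks at most 3000 bp apart, and the bases covered in both libraries were kept as 25003 shared domains. H3K27ac and H3K4me1 intervals called in both of their libraries were merged where they overlapped, which gave 40918 elements in the whole genome. An element was kept if it lay whole inside a shared domain and shared no base with an H3K4me3 peak of either library. H3K4me3 marks active promoters, and it touched 14069 elements. The 8525 enhancers in H3K36me3 domains are therefore 31.8% of the 26849 elements without H3K4me3. Their number depends on the definition: it was 14989 when regions were cut to the bases called in every H3K27ac and H3K4me1 library, and 13636 when the second library of each target was left out. No annotation of the build of the files (hg19) was used here, so whether an enhancer lies in a gene, an exon or an intron was not determined, and no region is given a gene name.

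The libraries were made from NCI-H23, an established cell line from a non-small cell lung cancer, by chromatin immunoprecipitation followed by sequencing. There were 22 libraries with a peak list, 2 for each of 11 targets, and an input library that was not analysed here. The labels give the same cell line for every library. Their treatment protocol names the BET inhibitor JQ1 and its solvent DMSO without saying which of them a given library received, so all libraries were described as one condition. The labels do not say whether the 2 libraries of a target came from separate cultures. For H3K9me3 library 2 the title and the description disagree on the replicate number, and the title was used. The lists hold between 21572 peaks (H3K4me3, library 1) and 277462 peaks (H3K27me3, library 2) and no read numbers, so the depth is unknown.

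H3K36me3 is laid down by SETD2, a methyltransferase that travels with elongating RNA polymerase II, which is why the mark fills the bodies of transcribed genes and is low at promoters. Enhancers inside genes lie in this chromatin and are marked, like other enhancers, by H3K4me1 from the KMT2C and KMT2D methyltransferases and by H3K27ac from EP300 and CREBBP. Histone H4 is acetylated on its tail at lysines 5, 8 and 12, among others, and BRD2, a BET protein, carries a pair of bromodomains that dock on acetylated H4. The series measured H4K5ac, H4K8ac and H4K12ac singly and, with a mouse monoclonal antibody made by the submitters, the tail acetylated at both lysine 5 and lysine 8 (H4K5acK8ac). None of the H4 marks, BRD2, H3K9me3 or H3K27me3 took part in the choice of the regions.

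The enhancers in domains were short and numerous. Their width had a median of 904 bp, with quartiles of 562 and 1503 bp and a range from 142 to 24711 bp, and together they covered 10.9 Mb. They lay a median of 6376 bp from the nearest edge of their domain and 15368 bp from the nearest H3K4me3 peak. Of the 8525, 7878 (92.4%) shared bases with an H3K36me3 peak in both libraries, 3856 (45.2%) were covered from end to end in both, and 199 lay in stitched gaps that neither library called. They fell into 3389 domains, 13.6% of all shared domains. Those domains had a median length of 20961 bp, against 2773 bp for the domains that held none. Of the 859 domains of at least 50 kb, 574 (66.8%) held at least 1 enhancer. A single enhancer was found in 1785 domains, between 2 and 9 in 1494, and 10 or more in 110, which held 1826 of the enhancers.

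For comparison, 14601 enhancers were built in the same way outside the domains, sharing no base with a stitched H3K36me3 interval of either library. A further 3723 elements without H3K4me3 crossed a domain edge or lay in an interval stitched in only 1 library, and 665 elements inside the domains were touched by H3K4me3. The outside enhancers had a similar width, with a median of 930 bp. The median fold enrichment of their strongest H3K27ac peak was 4.55 in library 1 and 6.40 in library 2, against 4.79 and 4.20 in the domains, so the order of the groups differed between the 2 H3K27ac libraries. H3K4me1 had median folds of 4.26 and 7.93 in the domains and 4.58 and 8.07 outside. Fold enrichment is the authors' value for a peak over local background and is compared only within a list. Groups of regions are read from the same libraries, and 2 libraries per target cannot reach an exact two-sided p of 0.05, so no p is given. Each share is printed for library 1 and library 2, then as mean ± SD over the libraries (n = 2), and Wilson intervals cover counting error only.

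Acetylation of H4 at both lysine 5 and lysine 8 was called at a minority of the enhancers in domains and at most of those outside. H4K5acK8ac met 2448 of the 8525 enhancers in library 1 (28.7%) and 2117 in library 2 (24.8%), where all 26849 elements without H3K4me3 gave 56.5% and 55.5%. The mean share was 26.8% ± 2.75 in the domains and 73.7% ± 0.906 outside, where the libraries gave 73.1% and 74.4%. The difference, domains minus outside, was -44.4 percentage points in library 1 and -49.5 in library 2, with a mean of -47.0 ± 3.65. This difference was larger than the spread between libraries in either group. The 3723 elements that crossed a domain edge or lay in an interval stitched in only 1 library lay between the groups, at 55.1% and 51.6%. The 665 elements in the same domains that carried H3K4me3 had H4K5acK8ac in 73.4% and 72.9% of cases. H3K4me3-touched elements outside the domains had it in 96.8% and 97.4%, so elements with H3K4me3 were also lower in the domains. The touched elements in domains were wider and stronger than the enhancers around them, with a median width of 2792 bp and median H3K27ac folds of 31.2 and 39.6. The share in the domains was lower without the first library of each target (16.5%), with peaks required to cover at least 50% of the enhancer (12.9%) and with only the 20000 strongest peaks of a list (4.62%, with a difference of -17.5 percentage points), and it stayed below the outside in each.

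H4K5ac alone showed the same order. It was called at 37.2% and 36.3% of the enhancers in domains, against a background of 61.7% and 61.1% over all elements without H3K4me3. Outside, 75.8% and 75.2% had it, and the mean difference was -38.7 ± 0.253 percentage points. Here the 2 libraries gave nearly equal shares in both groups.

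H4K8ac and H4K12ac, which were called less often outside, differed less in percentage points. H4K8ac was called at 39.4% and 22.7% of the enhancers in domains and at 61.7% and 47.8% outside, with backgrounds of 53.8% and 38.9%. The first H4K8ac library listed 224726 peaks and the second 116852, and the shares in both groups followed that order. The difference between groups was close in the 2 libraries, with a mean of -23.8 ± 1.94 percentage points. H4K12ac was called at 25.6% and 22.9% in domains and at 50.5% and 46.0% outside, with backgrounds of 41.7% and 37.7% and a mean difference of -24.0 ± 1.36. As a ratio, outside over domains, H4K12ac gave 1.98 and 2.00 and H4K8ac 1.57 and 2.11, beside 2.04 and 2.07 for H4K5ac and 2.55 and 2.99 for H4K5acK8ac. The 665 H3K4me3-touched elements in domains reached 69.5% and 70.5% for H4K12ac, above both kinds of enhancer.

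**Figure D1:**
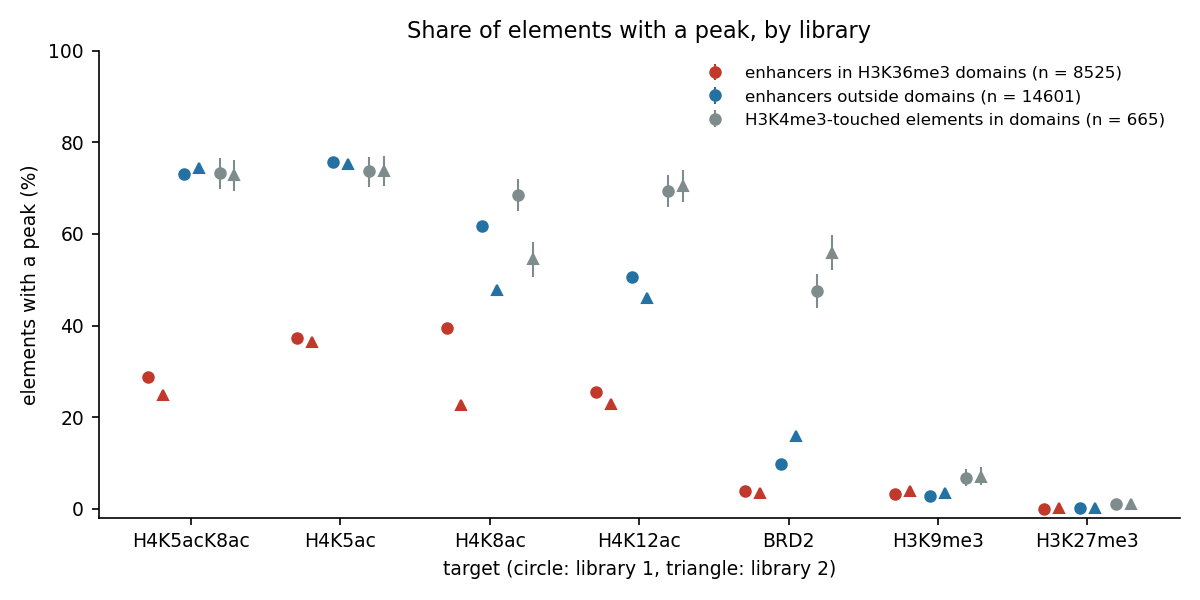
Share of elements (%) that overlap a peak of each target named on the horizontal axis, for enhancers in H3K36me3 domains (red), enhancers outside (blue) and H3K4me3-touched elements in domains (grey). Circles are library 1, triangles library 2 and lines 95% Wilson intervals, which are smaller than most symbols. For each of the 4 H4 marks and BRD2, both red points lie below both blue points, and among the H4 marks the nearest pair of points is H4K8ac at 39.4% and 47.8%; in both groups of enhancers H3K27me3 lies near 0 and H3K9me3 between 2.77% and 3.77%.

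Where an enhancer in a domain did have H4K5acK8ac, the call was weaker and covered less of the region. The median fold enrichment of the strongest H4K5acK8ac peak was 4.45 in library 1 and 3.95 in library 2 in the domains, and 5.69 and 5.60 outside, a ratio of 0.783 and 0.705. The called peaks covered a median of 45.5% and 50.9% of the enhancer in the domains and 75.4% and 84.0% outside. The calls also recurred less often between libraries. Of the enhancers in domains called in library 1, 70.1% were called in library 2, whereas outside 89.8% were. In the other direction the gap was smaller, with 81.1% in the domains and 88.2% outside. For the other H4 marks the median fold in the domains was likewise below that outside, with ratios of 0.814 and 0.791 for H4K5ac, 0.887 and 0.907 for H4K8ac and 0.902 and 0.908 for H4K12ac.

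Counting only marks called in both of their libraries, most enhancers in domains had no H4 acetylation call. Of the 8525, 5401 (63.4%) had none of the 4 marks, 1234 (14.5%) had 1, 862 (10.1%) had 2, 524 (6.15%) had 3 and 504 (5.91%) had all 4. Over all elements without H3K4me3, 37.5% had none and 19.6% had all 4, and outside the domains the shares were 22.1% and 27.005%. Among combinations short of all 4, the commonest in domains were H4K5ac alone (492 enhancers), H4K5ac with H4K5acK8ac (485) and H4K5acK8ac alone (286). In 5 combinations, all of them without H4K5acK8ac, the share was larger in the domains than outside, although each mark taken singly was rarer there. H4K8ac alone was found at 280 enhancers in domains (3.28%) against 1.45% outside, and H4K12ac alone at 176 (2.06%) against 0.527% outside. The other three were H4K8ac with H4K12ac (0.880% against 0.233%), H4K5ac with H4K12ac (1.33% against 0.890%) and these 3 marks together (1.40% against 0.945%). The combinations were picked after their values were seen.

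BRD2 was rare at the enhancers in domains. It was called at 329 of 8525 in library 1 (3.86%) and at 289 in library 2 (3.39%), with a mean of 3.62% ± 0.332, where all elements without H3K4me3 gave 8.03% and 11.8%. Outside, the shares were 9.70% and 15.9%, with a mean of 12.8% ± 4.37. The difference, domains minus outside, was -5.85 and -12.5 percentage points, with a mean of -9.17 ± 4.70, so its direction was the same in both libraries and its size was not. The 3723 elements that crossed a domain edge or lay in an interval stitched in only 1 library had BRD2 in 11.0% and 14.9% of cases. The H3K4me3-touched elements in the same domains had it in 47.5% and 55.9%. BRD2 peaks at the enhancers in domains were weak, with a median −log10 q of 0.939 in library 1 and 1.69 in library 2, and 1.06 and 2.27 outside. At a −log10 q of at least 2 in every list used, the mean share of enhancers in domains with BRD2 was 0.949%, with a difference of -5.30 percentage points from the outside. It was 0.886% among the 20000 strongest peaks, with a difference of -4.54, and 0.0821% with at least 50% of the enhancer covered, with a difference of -1.24. Without the second library of each target the difference was -4.76, and with 5 classes of the second H3K27ac library matched it was -5.69.

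Few of these calls recurred. Of the 329 enhancers in domains with BRD2 in library 1, 20.4% had it in library 2, and of the 289 in library 2, 23.2% had it in library 1, against 58.6% and 35.8% of the outside enhancers. This left 67 enhancers in domains with BRD2 in both libraries (0.786%), against 831 outside (5.69%). Over all elements without H3K4me3 the share with BRD2 in both was 4.29%. In 35 of the 67, or 0.411% of all enhancers in domains, at least 1 base was called in both BRD2 lists. In the rest the 2 lists called different places in the same enhancer. Outside, 664 of 831 (79.9%) had such a shared base. The summits of the BRD2 peaks of the 2 libraries were a median of 486 bp apart in the 67, and 185 bp apart outside. The 67 were wide and strongly acetylated at H3: their median width was 4077 bp and their median H3K27ac folds were 28.7 and 37.0, against 2023 bp and folds of 10.1 and 18.6 for the 831. The part of this difference in width in the counts of shared bases was not tested.

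BRD2 in both libraries went with H4 acetylation in both settings. Of the 67, 64 had H4K5ac in both libraries, 63 had H4K5acK8ac, 61 had H4K12ac and 57 had H4K8ac, and 57 had all 4. Over all elements without H3K4me3 the shares with these marks in both libraries were 52.5%, 48.4%, 28.9% and 32.2%. Read the other way, H4 marks were again counted only where called in both libraries. BRD2 in both libraries was found at 3 of 5401 enhancers in domains with 0 such marks (0.0555%), at 1 of 1234 with 1 mark (0.0810%), at 2 of 862 with 2 (0.232%), at 4 of 524 with 3 (0.763%) and at 57 of 504 with all 4 (11.3%, Wilson interval 8.83% to 14.4%). Outside the domains the same series ran 0.0310%, 0.0457%, 0.141%, 1.62% and 19.9% (18.7% to 21.2%). The intervals of the 2 groups overlapped with 0, 1, 2 or 3 marks, and with all 4 the share in the domains was lower and they did not. Counted per library, BRD2 was also called where no H4 mark was called in both libraries. Of such enhancers in domains, 2.09% and 0.981% had BRD2 in library 1 and library 2, beside 1.77% and 0.744% outside. H4 calls made in 1 library only were not excluded here. Wider enhancers had more calls of both kinds. From the narrowest to the widest of 5 width classes in the domains, BRD2 went from 1.17% and 0.949% to 9.08% and 10.1%. H4K5acK8ac went from 8.88% and 7.82% to 60.6% and 55.7%. The part of width in the relation between BRD2 and H4 acetylation was not tested.

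**Figure D2:**
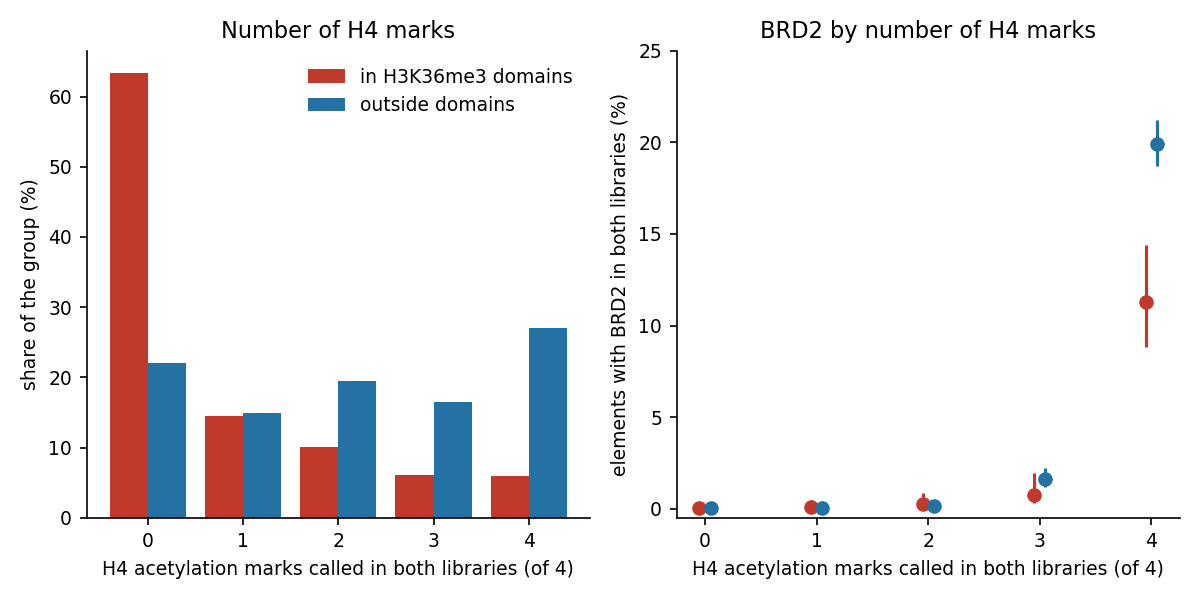
Left, share of enhancers (%) by the number of H4 acetylation marks called in both libraries, in H3K36me3 domains (red, n = 8525) and outside (blue, n = 14601). Right, share with BRD2 in both libraries (%) by the same number, with 95% Wilson intervals as lines; the left panel shows 63.4% of the red group at 0 marks against 22.1% of the blue, and the right panel stays under 2% up to 3 marks and reaches 11.3% and 19.9% at 4.

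H4K5acK8ac on its own split the BRD2 calls in the same way. In the domains 1716 enhancers (20.1%) had H4K5acK8ac in both libraries and 5676 (66.6%) in neither, where all elements without H3K4me3 gave 48.4% and 36.4%. Of the 1716, 63 (3.67%, interval 2.88% to 4.67%) had BRD2 in both, where all elements without H3K4me3 and with that mark gave 8.77%. Of the 5676, 3 (0.0529%) had BRD2 in both, where the corresponding background was 0.0614%. Outside, 825 of 9581 (8.61%) with the mark had BRD2. The H3K4me3-touched elements in domains with H4K5acK8ac in both libraries had BRD2 in both in 306 of 469 cases (65.2%). The 3 exceptions, chosen after their values were seen, were chr10:3124107-3125579, chr20:37563821-37567872 and chr20:61839833-61840208. In library 1 alone, the first 2 had H4K5ac called, with folds of 2.48 and 2.50, and the last had H4K8ac, with a fold of 2.50. All 3 were covered by H3K36me3 from end to end, and their BRD2 folds of 2.90 and 3.67, 3.03 and 3.50, and 2.76 and 2.95 (library 1 and library 2) lay near the medians of 2.88 and 3.50 over all enhancers in domains with a BRD2 call in that library. Their BRD2 summits in the 2 libraries were 49, 2858 and 323 bp apart.

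The enhancers in domains that did carry H4K5acK8ac were the wide ones with strong H3K27ac. The 1716 with the mark in both libraries had a median width of 1732.5 bp and median H3K27ac folds of 8.90 and 11.98. The 1133 with it in 1 library had 1081 bp and folds of 5.38 and 5.49, and the 5676 without it had 739 bp and folds of 4.28 and 3.50. Other acetylation followed: H4K5ac was called in both libraries at 80.8%, 37.2% and 8.02% of these classes, and H4K12ac at 42.6%, 15.9% and 5.34%. H3K36me3 went the other way, with median folds of 6.52 and 6.47 in the first class and 7.72 and 7.56 in the last.

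Both groups were therefore split together into 5 equal classes of H3K27ac fold, by the sum of ranks in the 2 libraries. This matched strength only in part. In every class the median H3K27ac fold was higher in the domains in library 1 and lower there in library 2. In the middle class the folds were 5.20 and 4.38 in the domains and 4.23 and 6.04 outside. In the weakest class H4K5acK8ac was called at 4.76% and 3.33% of the enhancers in domains and at 47.6% and 50.9% of those outside. In the middle class the shares were 18.8% and 14.8% against 69.6% and 70.6%. In the strongest class they were 87.9% and 82.0% against 97.6% and 96.9%. The domains thus lay below the outside in every class and both libraries, by the least in the strongest. The mean difference over the classes was -43.0 percentage points, and over classes of width it was -46.5. The enhancers in domains were over-represented in the weak classes, with 2039 in the weakest and 1259 in the strongest. BRD2 in the strongest class was called at 10.2% and 14.0% in the domains and at 21.0% and 36.8% outside, and in the weakest at 2.06% and 1.13% against 4.04% and 4.77%.

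**Figure D3:**
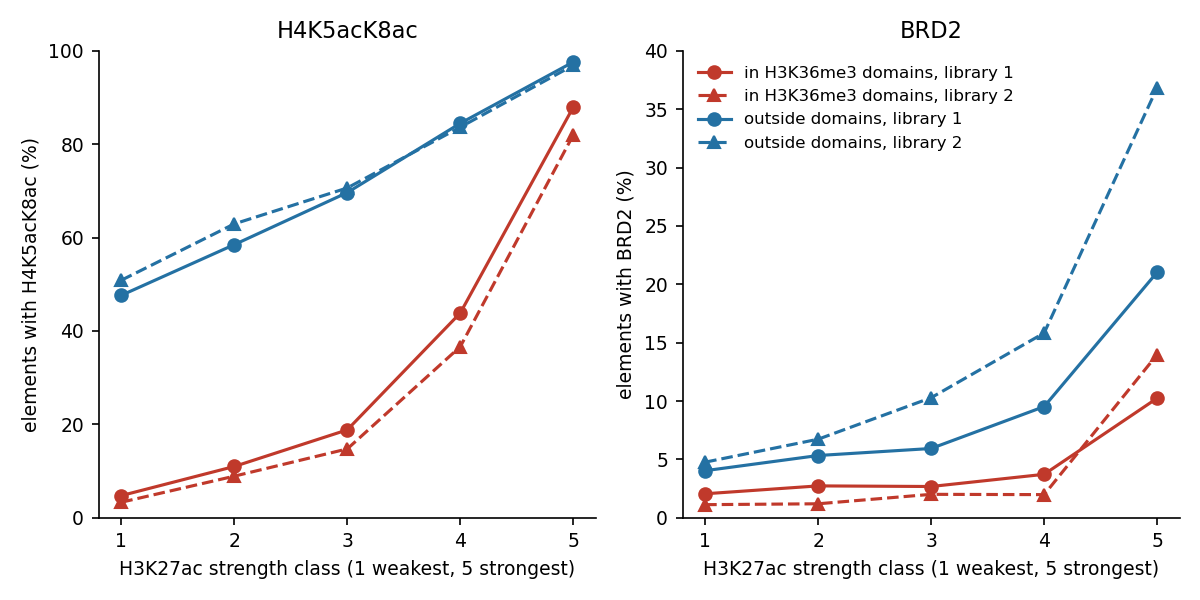
Share of enhancers (%) with H4K5acK8ac (left) and with BRD2 (right, axis to 40%) by class of H3K27ac fold enrichment, in H3K36me3 domains (red) and outside (blue); circles and solid lines are library 1, triangles and dashed lines library 2. Red lies below blue in every class of both panels, and for H4K5acK8ac the values are 4.76% against 47.6% in class 1 and 87.9% against 97.6% in class 5 (library 1).

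H4K5acK8ac varied little with position in the domain. It was called at 31.0% and 28.6% of the enhancers lying up to 0.5 kb inside a domain edge and at 31.3% and 25.7% of those more than 20 kb inside, and between these the shares ranged from 26.7% to 31.0% in library 1 and from 22.8% to 29.2% in library 2. The single marks were somewhat more frequent at the edge: H4K5ac was called at 41.0% and 44.9% up to 0.5 kb inside and at 37.9% and 37.8% beyond 20 kb, H4K8ac at 44.0% and 28.6% against 34.0% and 25.1%, and H4K12ac at 28.2% and 26.1% against 24.0% and 20.4%. Outside, distance was taken to the nearest interval stitched in either library, and not to the shared domains used inside. The share with H4K5acK8ac differed more with distance there. It was 52.7% and 50.4% up to 0.5 kb away, 64.1% and 64.0% at 2 to 5 kb, and 81.6% and 83.4% beyond 20 kb. Even enhancers just outside a stitched interval were thus above those just inside a domain. Within 100 bp of these edges, 150 enhancers inside had H4K5acK8ac in 32.0% and 28.0% of cases, and 96 outside in 53.1% and 46.9%. In the domains 3 enhancers ended exactly at an edge, of which the 2 named by rule, chr1:6855748-6856579 and chr1:153925908-153927761, had neither H4K5acK8ac nor BRD2. Outside, 3 enhancers lay 0 or 1 bp from a stitched interval. The 2 of them named by rule, chr2:174023286-174026734 and chr2:208379652-208380696, had H4K5acK8ac folds of 14.0 and 9.91, and of 7.07 and 3.09.

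**Figure D4:**
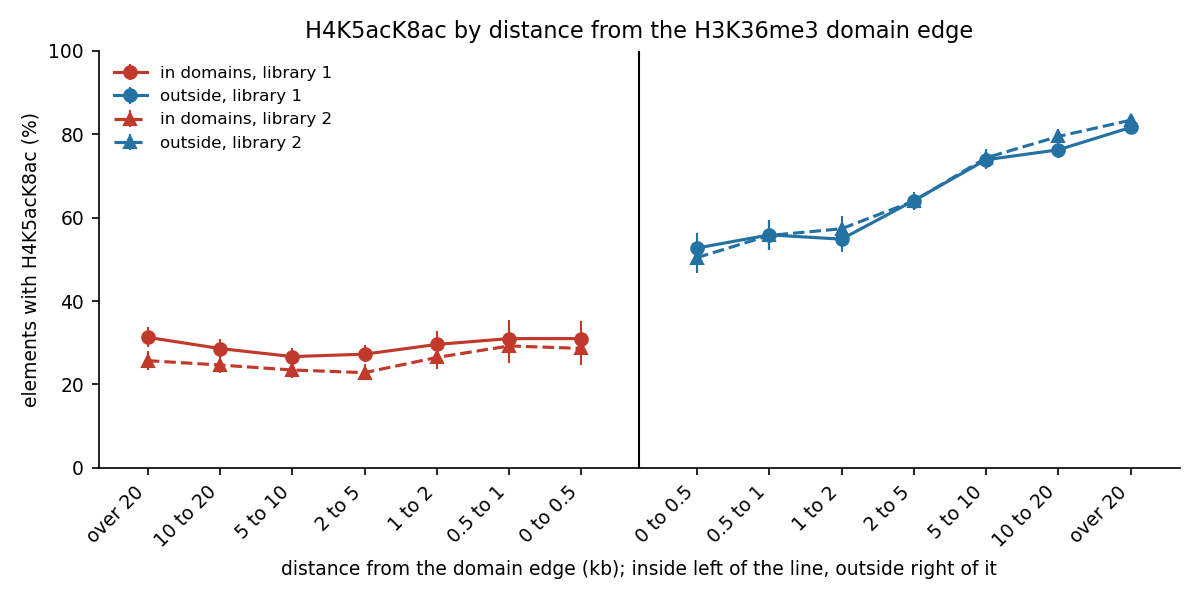
Share of enhancers (%) with H4K5acK8ac by distance (kb) from the edge of an H3K36me3 domain, inside (red, left of the line) and outside (blue, right of it), with 95% Wilson intervals as vertical lines. Distance is to the edge of the shared domain inside, and to the nearest interval stitched in either library outside. Inside, all points lie between 22.8% and 31.3%. Outside, they lie between 50.4% in the nearest bin and 83.4% beyond 20 kb.

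Enhancers that H3K36me3 covered completely had H4K5acK8ac less often than the rest. Of the 3856 enhancers covered from end to end in both libraries, 17.6% and 14.1% had H4K5acK8ac. Of the other 4669, 37.9% and 33.7% had it. Short of full coverage there was no graded relation: the 199 with no H3K36me3 peak had 24.1% in each library, and the classes of partial coverage lay between 36.7% and 40.9% in library 1 and between 31.7% and 38.8% in library 2. The covered ones were also narrower, at a median of 725 bp against 1100 bp. The 199 were narrower still, at 567 bp, where the classes of partial coverage had medians between 1046 and 1243 bp. Within each of the 5 classes of H3K27ac fold, the covered enhancers still had the lower share in both libraries, from 3.27% and 1.86% against 6.62% and 5.18% in the weakest to 84.2% and 74.3% against 89.1% and 84.4% in the strongest. The same held in each of the 5 classes of width. Among the 7878 with an H3K36me3 peak in both libraries, split into 5 classes by its fold, the share was 34.8% and 29.6% in the weakest class and 20.6% and 17.4% in the strongest. H4K12ac went the other way over these classes, with 21.6% and 21.3% in the weakest and 30.3% and 26.5% in the strongest, and H4K8ac differed in direction between its libraries, with 37.3% and 25.9% against 44.7% and 19.99%. By coverage, however, both were lower where H3K36me3 covered the enhancer from end to end. H4K12ac was called at 21.0% and 17.7% of the covered enhancers and 29.3% and 27.3% of the others, and H4K8ac at 36.2% and 17.3% against 42.0% and 27.1%. For BRD2 the covered enhancers had 3.09% and 1.92%, and the others 4.50% and 4.60%.

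In the domains the share with H4K5acK8ac was higher far from H3K4me3 than near it. The mark was called at 22.3% and 19.9% of the enhancers within 1 kb of an H3K4me3 peak, at 28.3% and 24.6% of those 10 to 30 kb away, and at 39.8% and 36% of the 400 beyond 100 kb. Outside, all distances lay between 69.0% and 74.6% in library 1 and between 71.7% and 77.2% in library 2. H4K12ac in the domains ran the other way, from 28.9% and 28.1% within 1 kb to 17.8% and 18.5% beyond 100 kb. The median H3K36me3 fold in the domains fell over the same distances, from 8.52 and 8.39 to 5.32 and 5.23. Its part in these trends was not tested. H4K8ac in library 1 was highest 3 to 10 kb away in both groups, at 44.7% in the domains and 73.2% outside, and lowest beyond 100 kb, at 32% and 44.0%. In library 2 the outside had its highest and lowest shares at the same distances, at 57.9% and 33.3%. The domains differed there, with 17.4% within 1 kb and the highest share, 28%, beyond 100 kb. The difference between groups was present on every chromosome with at least 50 enhancers in domains: for H4K5acK8ac and for BRD2, the domains were lower than the outside on 23 of 23 in both libraries. H4K5acK8ac ranged from 20.2% to 47.6% in the domains and from 67.8% to 77.6% outside in library 1, and chromosome 15 was the highest in the domains.

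Of the repressive marks, H3K27me3 was nearly absent from the enhancers in domains and H3K9me3 was called about as often as BRD2 in each library. Calls in both libraries were more frequent for H3K9me3, at 209 enhancers in domains (2.45%), than for BRD2, at 67 (0.786%). H3K27me3, the mark of Polycomb repression, was called at 2 of 8525 in library 1 and at 7 in library 2, which is 0.0235% and 0.0821%, with backgrounds of 0.0894% and 0.115%. Outside, the shares were 0.151% and 0.144%. H3K9me3, a mark of heterochromatin that is also known from the 3′ parts of zinc finger genes, was called at 3.26% and 3.77%, beside 3.85% and 4.48% over all elements without H3K4me3 and 2.77% and 3.45% outside. Among the 3723 elements that crossed a domain edge or lay in an interval stitched in only 1 library it reached 9.43% and 10.2%. H3K9me3 calls were commonest where H3K27ac was strongest, in the domains and outside. In the domains they were made at 10.2% and 11.1% of the enhancers in the strongest class of H3K27ac and at 0.834% and 1.03% in the weakest, and outside at 5.73% and 7.58% and at 0.538% and 0.884%. Width moved with this: the median was 1995 bp in the strongest class in the domains and 586 bp in the weakest, and from the narrowest to the widest class the H3K9me3 share went from 1.40% and 2.01% to 6.43% and 6.95%. The part of width was not tested. Over all elements without H3K4me3, 2.79% had H3K9me3 in both libraries. In the domains it was 8.28% of the enhancers with H4K5acK8ac in both libraries and 0.687% of those with it in neither.

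Single regions show the range. The 6 enhancers in domains with the strongest BRD2 by rank in both lists all carried the 4 H4 marks in both libraries. At chr6:151363837-151384948, 21112 bp wide and in a domain of 237 kb, BRD2 had folds of 5.02 and 8.43 (library 1 and library 2), H3K27ac 46.4 and 35.2, and H4K5acK8ac 50.7 and 34.3, and the strongest BRD2 summits of the libraries were 14308 bp apart. H3K9me3 was called there too, with folds of 7.47 and 8.27. At chr14:68612332-68614416 BRD2 had folds of 5.08 and 7.76 with summits 31 bp apart, and H3K36me3 peaks covered only 22.7% and 17.0% of the 2085 bp. The region thus lies in a domain mostly by stitching. At chr10:3132178-3144211, covered by H3K36me3 over 92.4% and 92.1% of its length, BRD2 had folds of 4.10 and 8.93, with H3K27ac at 76.2 and 67.3. The other 3 were chr8:23205826-23216395, with BRD2 folds of 4.33 and 7.11, chr17:57831722-57834401, with 4.08 and 6.10, and chr16:15682197-15690279, with 3.97 and 6.02. The highest BRD2 folds among the 67 were 5.08 and 8.93, and among the 831 outside enhancers with BRD2 in both libraries 23.8 and 54.2.

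Strong H3K27ac also occurred without H4K5acK8ac or BRD2 in either library. At chr12:110479213-110479990, covered by H3K36me3 from end to end, H3K27ac had folds of 11.4 and 38.0, and of the H4 marks H4K8ac and H4K12ac were called in library 2 alone, with folds of 2.77 and 2.19. At chr19:46016930-46020204 H3K27ac had folds of 16.7 and 12.6, with H4K5ac called in both libraries at 3.29 and 3.77. At chr11:9416850-9418878 H3K27ac had folds of 13.0 and 14.6, with H4K5ac and H4K8ac in library 1 only. The widest enhancer of all, chr11:123412515-123437225, spanned 24711 bp with H3K4me1 folds of 16.4 and 27.7 and H3K27ac folds of 12.2 and 11.8. All 4 H4 marks were called there in both libraries with folds between 2.64 and 3.73, but the H4K5acK8ac peaks covered 1.68% and 1.29% of it, and BRD2 was not called.

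The domains with the most enhancers held mixtures. The domain chr7:80367736-80547055, 179 kb long, held 54 enhancers and 1 H3K4me3-touched element. H4K5ac was called at 39 and 40 of the 54, H4K5acK8ac at 24 and 20 with 14 in both libraries, and BRD2 at 1 and 3 with none in both, so BRD2 in both libraries was not detected among 54. All 4 H4 marks were called in both libraries at 4 of the enhancers, and at 17 none of the 4 was called in both. The domain chr8:128942825-129116340 of 174 kb held 42 enhancers. Counting marks called in both libraries, 13 of these had all 4 H4 marks and 16 had none, and 1 had BRD2 in both libraries. In chr2:36638907-36823454, a domain of 185 kb with 41 enhancers, counted in the same way, 5 had all 4, 25 had none and 1 had BRD2 in both. Over the 110 domains with at least 10 enhancers, the share of a domain's enhancers with H4K5acK8ac in both libraries had a median of 16.7% and quartiles of 7.28% and 32.6%. In 19 of these domains no enhancer had the mark in both libraries, in 2 every enhancer had it, and 18 held an enhancer with BRD2 in both.

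**Figure D5:**
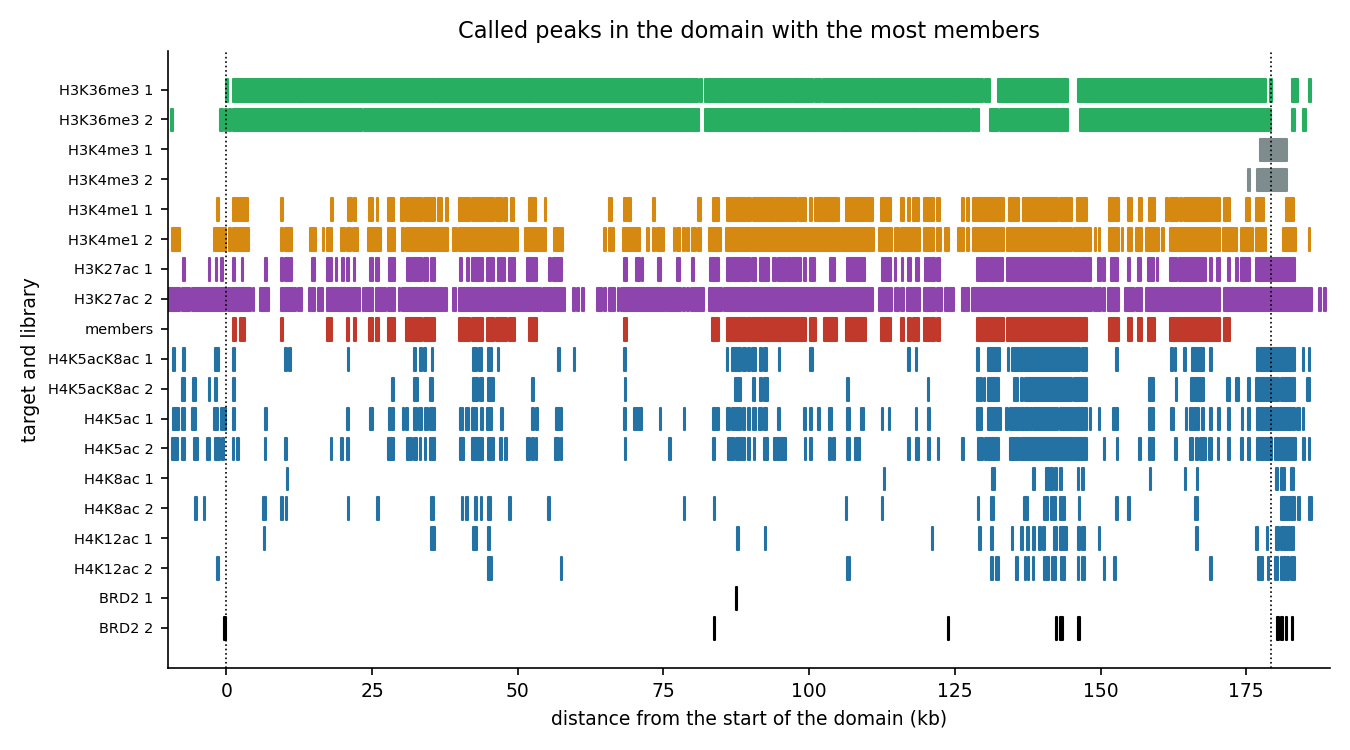
Called peaks of each library in the H3K36me3 domain with the most enhancers, against distance from its start (kb); dotted lines are the domain edges, red bars the 54 enhancers, and each other row the peaks of a library, with 10 kb shown on either side. H3K36me3 (green) covers almost the whole 179 kb, H4 marks (blue) are densest about 130 to 147 kb from the start, and BRD2 (black) is called at 1 of the enhancers in library 1 and 3 in library 2.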

How the data were processed

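Peak lists were deposited by the authors in narrowPeak layout, 1 per library and not pooled as far as stated. The submitters' processing notes list BWA, MACS2 and the build hg19; settings, versions and the control are not given in the sources used here. Fold enrichment is the authors' deposited ratio over local background, and the deposited −log10 p and −log10 q served to filter peaks or describe them, each within its own list. The deposited score was not used. Of the peaks, 2889009 entered and 19 on the mitochondrial chromosome were left out.

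Intervals were computed with Python 3.11.15, numpy 2.4.6 and pandas 2.3.3, and plotted with matplotlib 3.10.9. Code was tested on simulated intervals. A region had a mark when at least 1 bp was shared with a peak, and the strongest overlapping peak gave its fold; that peak may extend beyond the region. Coordinates are 1-based, hg19. Wilson intervals (95%) cover counting error only; without read numbers, no depth correction was made. The regions and lists were chosen with earlier results of these data known. Named regions were the 6 with BRD2 in both libraries and the best mean rank of BRD2 fold, the 3 with the highest mean rank of H3K27ac fold and no H4K5acK8ac or BRD2, the 3 domains with the most enhancers, the widest enhancer, and the 2 regions on each side nearest a domain edge. Alternatives to each step were run; no genome of hg19 was used, so no sequences are given.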

Additional observations from a re-analysis of the deposited data

How the results depend on the processing

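No alternative reversed a difference: of 62 alternative values, 36 stayed close and 26 moved, by 1 SD between libraries or more for a share or difference and by over 1.5 times for the number of enhancers, and the domains were below the outside for H4K5acK8ac and BRD2 under each alternative run. Cutting the regions to bases called in all 4 H3K27ac and H3K4me1 libraries gave 14989 enhancers in domains and a BRD2 share of 2.60%. A stitching gap of 1000 bp gave shares of 22.5% for H4K5acK8ac and 2.93% for BRD2. Admitting regions with any overlap with a domain gave 32.0% and 5.81%, with an H4K5acK8ac difference of -41.7 percentage points. A −log10 q of at least 2 in every list gave a BRD2 share of 0.949%. Asking that a peak cover at least 50% of the region gave 12.9% and 0.0821%, with a BRD2 difference of -1.24, and asking for a peak within 500 bp on either side of the strongest H3K27ac summit of library 1 gave 2.90% for BRD2. The 20000 strongest peaks of each readout list gave 4.62% and 0.886%, with an H4K5acK8ac difference of -17.5. Within H3K27ac classes the H4K5acK8ac difference was -43.0, and within classes of the second H3K27ac library alone, added after seeing the data, -38.9. For the settings in which a share moved, the cause was not tested. With 1 library per target, the number of enhancers ranged from 10622 to 13636, the H4K5acK8ac share from 16.5% to 21.0%, the BRD2 share from 2.91% to 4.05%, the H4K5acK8ac difference from -36.3 to -41.6 and the BRD2 difference from -4.76 to -7.04; the count of 13636 is the one without the second libraries. Over 55 pairs of targets, deviations per 1 Mb bin between libraries correlated between -0.253 and 0.398, with a median of 0.0115. In 13 of the pairs the correlation was above the limit of 0.1. Whether libraries with the same replicate number belong together was therefore not settled. The replicate block, in which regions and calls are read within one replicate number and then averaged, gave 18.8% for H4K5acK8ac and a difference of -39.0. The absence of a peak says that none was called at an unknown depth, not that the mark is absent.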
